A study of Danio rerio with 8 samples.

Results

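Loss of the transcription factor Tcf21 was compared between the epicardial cells (EpiCs) and the cardiomyocytes (CMs) of larval zebrafish hearts, gene by gene. For each gene, the *tcf21-/-* minus *tcf21+/+* difference was taken in EpiCs and in CMs as log2(value + 1), and the CM difference was subtracted from the EpiC difference. This interaction is above 0 where the mutant EpiCs stood higher, relative to their wild type (WT), than the mutant CMs did, and below 0 in the opposite case. The genes were chosen by abundance alone, and 16077 of the 21286 genes in the table reached the required mean of 10 or more over the 8 libraries. The lowest mean value kept was 10 and the highest left out was 9.875.

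Cells were sorted at 96 hours post-fertilization (hpf) from hearts carrying *TgBAC(tcf21:NLS-EGFP)*, which marks EpiCs, and *Tg(myl7:mCherry-CAAX)*, which marks CMs. There were 4 groups of 2 libraries, one for each of the 2 cell types in each of the genotypes *tcf21+/+* and *tcf21-/-*. EpiCs were all cells positive for the *tcf21* reporter, including those that also carried the *myl7* reporter, and CMs were positive for the *myl7* reporter and negative for the other. Mutant larvae came from intercrosses of *tcf21+/-* fish and were picked for the lack of head muscles and for substantial epicardial coverage of the ventricle. WT larvae came from intercrosses of *tcf21+/+* siblings, so genotype and parentage cannot be told apart. Cells were collected over several sorting sessions, and which library came from which session is not given in the sources used here. Nothing in the labels says whether EpiC and CM libraries with the same number came from the same hearts.

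The epicardium is the mesothelial layer that covers the heart. It secretes growth factors and matrix that act on the myocardium beneath it, and the myocardium signals back through ligands of its own. Tcf21 is a basic helix-loop-helix transcription factor that serves as a standard marker of EpiCs, and CMs are known by their sarcomere genes instead. In bulk libraries of sorted cells, fewer cells of a type and less RNA per cell cannot be told apart.

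The libraries held an estimated 6.44 to 11.4 M reads on genes, with 9.86 to 11.4 M in EpiCs and 6.44 to 9.39 M in CMs. Between 10.02% and 12.5% of all genes stood at 0 in an EpiC library and between 16.9% and 21.9% in a CM library. The SD over genes of the log2 difference between the 2 replicates was 0.90 and 0.91 in the EpiC groups, 1.05 in *tcf21-/-* CMs and 1.256 in *tcf21+/+* CMs, the least alike pair. Replicate 1 of that pair was also the shallowest library. The epicardial marker *postnb* separated the cell types, lying between 4443 and 4688 in EpiCs and between 0 and 22 in CMs. The 11 epicardial identity genes summed to between 32160 and 35042 in EpiCs and between 2780 and 4851 in CMs. Not all of them separated the cell types: *sema3fb* had 1419, 1089, 2176 and 2802 in EpiCs and 985, 2319, 2227 and 2295 in CMs. The 16 CM identity genes summed to between 114215 and 127650 in CMs and were not absent from EpiCs, where they summed to between 12928 and 19290. The transcript of *tcf21* is not removed by the mutant allele bns427, a 10-bp deletion in the first exon that shifts the frame, and its level does not check the genotype.

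No gene passed the test of the interaction. With limma (two-sided, all 8 libraries in 1 fit, Benjamini–Hochberg adjustment over 16077 genes), 0 genes had an adjusted P under 0.05 with an absolute difference of at least 0.59 on the log2 scale, 0% in either direction, and the lowest adjusted P was 0.0992. Without adjustment, 1137 genes (7.07%) had a P under 0.05, against the 804 that a 5% rate gives over this many genes. Of these, 407 (2.53%) had an interaction above 0 and 730 (4.54%) below 0, although genes as a whole split evenly, with 8288 above and 7789 below. The surplus below 0 depended on single libraries and on the scaling. It was all but absent without replicate 1 of the *tcf21+/+* EpiCs and smaller without replicate 2 of the *tcf21-/-* CMs. With estimated reads without scaling it was larger (206 above and 916 below 0).

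Within each cell type, the same fit called a small number of genes. It gives each gene 1 spread shared by all 4 groups, so the spread in CMs also enters the EpiC P values, and the reverse. The CM replicates were less alike than the EpiC ones. The P values and calls for a cell type, here and below, are thus not from tests within that cell type alone. In EpiCs, 7 genes (0.0435%) rose and 24 (0.149%) fell in mutants, and in CMs 40 (0.249%) rose and 19 (0.118%) fell. Without adjustment, 1360 genes (8.46%) had a P under 0.05 in EpiCs, 670 (4.17%) higher and 690 (4.29%) lower in mutants, and 1964 (12.2%) in CMs, 1179 (7.33%) higher and 785 (4.88%) lower. A gene called in 1 cell type alone is not thereby shown to differ between them, and the interaction test is the comparison that bears on it. Of the 1137 genes at an unadjusted interaction P under 0.05, 399 had such a P for the genotype difference in EpiCs alone, 535 in CMs alone, 53 in both with opposite signs, 3 in both with the same sign and 147 in neither. The 2 WT libraries of each cell type enter every one of these differences, so the classes describe where the numbers came from and are not separate tests.

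Detection at the low end carried part of this list. At least 1 group stood at 0 in both libraries for 191 of the 1137 genes (16.8%), against 1131 of all 16077 (7.03%). All 4 CM libraries were at 0 for 36 of them, and there the interaction is the EpiC difference alone. Complete separation of the genotypes in opposite directions in the 2 cell types was seen for 775 genes (4.82%), of which 480 (2.99%) were lower in mutant EpiCs and higher in mutant CMs and 295 (1.83%) the reverse. Separation in the same direction was more frequent, with 2087 genes (13%). Across all genes tested (genes are not independent replicates), the EpiC and CM differences had a Pearson r of 0.17 and a Spearman rho of 0.25, and for the 5853 most abundant ones, with a mean of 500 or more, these were 0.25 and 0.42.

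**Figure D1:**
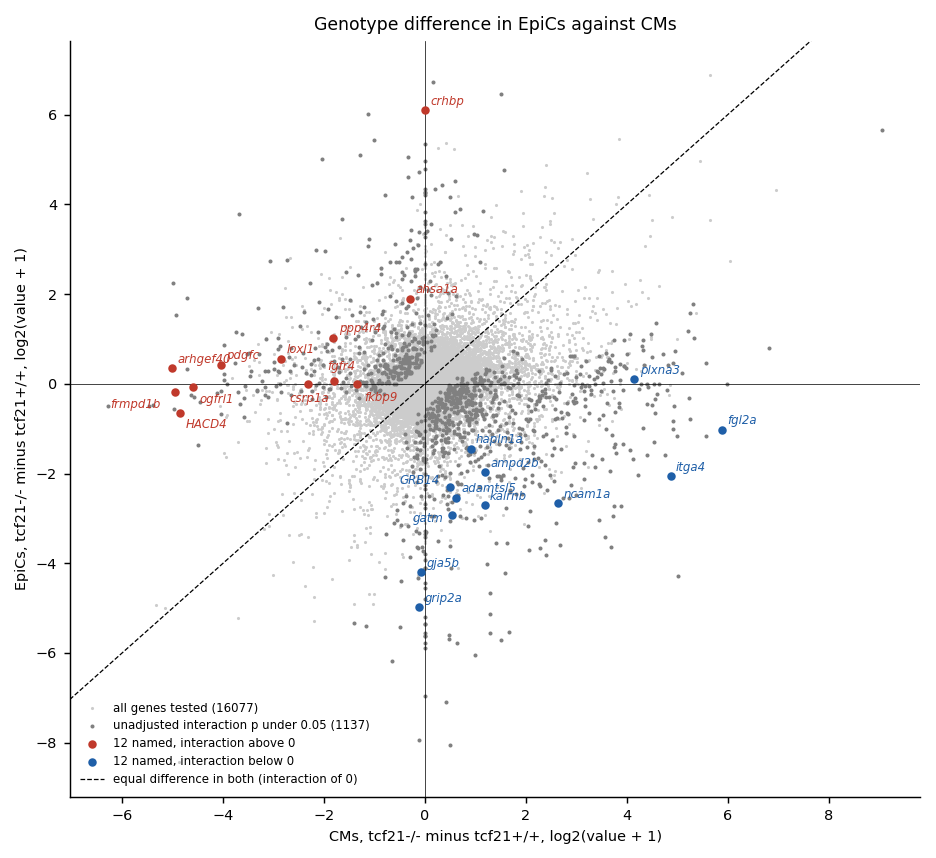
Genotype difference in CMs (x axis) and in EpiCs (y axis) for the 16077 genes tested, each as tcf21-/- minus tcf21+/+ on the log2(value + 1) scale; darker points are the 1137 genes at an unadjusted interaction P under 0.05, and the dashed line is an interaction of 0. The 12 named genes above 0 (red) lie mainly along the left arm, lower in mutant CMs with EpiCs near 0, and the 12 below 0 (blue) lie mainly to the lower right. Of the blue genes, gja5b and grip2a lie near 0 on the x axis and plxna3 near 0 on the y axis.

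Genes are described below by the side on which they moved. They are the 12 with the smallest interaction P in each direction among genes that have a symbol other than a clone name and average 50 or more, and others named after their values were seen. None was called for the interaction, so each is given with its values, its adjusted P and the range of its interaction when any single library was left out. Positions are on danRer11, and every fold is a ratio of group means of the values.

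One set of genes was lower in mutant EpiCs, while in CMs it was as high or higher in mutants. *hapln1a* (ENSDARG00000089769, chromosome 5, 46490622 to 46505702) encodes a link protein that holds hyaluronan and proteoglycans together in the matrix. Its values were 604 and 566 in WT EpiCs and 209 and 219 in mutant EpiCs, against 1203 and 991 in WT CMs and 2351 and 1781 in mutant CMs. The genotypes did not overlap in either cell type, and the directions were opposite. The gene fell in EpiCs, where the mutant mean was 2.73-fold lower (limma adjusted P = 0.048), and was 1.88-fold higher in mutant CMs (adjusted P = 0.16). The interaction was −2.35 (SE 0.30, adjusted P = 0.0992), and between −2.55 and −2.15 without any single library. Its paralog *hapln1b* had values of 677 and 714 against 245 and 244 in EpiCs and 349 and 760 against 1431 and 1115 in CMs, with an interaction of −2.80 (SE 0.48, adjusted P = 0.161). Both link protein genes thus had their lowest values in mutant EpiCs and their highest in mutant CMs.

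*ampd2b* (ENSDARG00000029952, chromosome 8, 25247245 to 25293690) encodes an AMP deaminase, an enzyme of purine nucleotide metabolism. Its values were 2672 and 2524 in WT EpiCs and 665 and 658 in mutant EpiCs, and 127 and 81 against 194 and 283 in CMs. It fell 3.93-fold in EpiCs (limma adjusted P = 0.048) and was 2.29-fold higher in mutant CMs (adjusted P = 0.174), with an interaction of −3.17 (SE 0.41, adjusted P = 0.0992). The replicates of the mutant EpiCs were nearly equal, and the gene was the one called in the most alternative settings, 4 of them, with an adjusted P between 0.0305 and 0.417 over all of them. *kalrnb* (ENSDARG00000063538, chromosome 6, 9289802 to 9455966), a guanine nucleotide exchange factor, had 1158 and 961 against 189 and 136 in EpiCs and 344 and 195 against 444 and 780 in CMs. It fell 6.52-fold in EpiCs (adjusted P = 0.0465), and the interaction was −3.89 (SE 0.53, adjusted P = 0.109).

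In the next 3 genes the CM libraries of the 2 genotypes stood closer together, so the interaction came mainly from EpiCs. *adamtsl5* (ENSDARG00000052118, chromosome 7, 50475703 to 50517023), an ADAMTS-like matrix protein without the protease domain, had 1882 and 1303 against 294 and 247 in EpiCs and 551 and 933 against 1232 and 976 in CMs. It fell 5.89-fold in EpiCs (limma adjusted P = 0.0296), and the interaction was −3.15 (SE 0.42, adjusted P = 0.109). *GRB14* (ENSDARG00000068280, chromosome 9, 50316921 to 50340720), an adaptor that binds the insulin receptor, had 581 and 717 against 170 and 99 in EpiCs and 461 and 421 against 633 and 605 in CMs, with an interaction of −2.79 (SE 0.42, adjusted P = 0.132). *gatm* (ENSDARG00000036239, chromosome 18, 35725 to 46010), which encodes the enzyme of the first step of creatine synthesis, had 289 and 237 against 26 and 43 in EpiCs and 286 and 263 against 327 and 486 in CMs, with an interaction of −3.47 (SE 0.54, adjusted P = 0.155). WT levels of *gatm* were alike in the 2 cell types, and the 2 mutant EpiC libraries stood apart from the other 6. Both *GRB14* (4.83-fold) and *gatm* (7.62-fold) fell in EpiCs with a limma adjusted P of 0.0345.

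A second set consisted of genes that were higher in every CM library than in any EpiC library and that fell in mutant EpiCs, while their CM values overlapped between the genotypes. *gja5b* (ENSDARG00000069450, chromosome 1, 47414734 to 47431453) encodes a connexin of cardiac gap junctions. Its values were 49 and 26 in WT EpiCs and 1 and 1 in mutant EpiCs, while the CM libraries held 2009 and 2619 against 2526 and 1891. The EpiC mean fell 37.5-fold (limma adjusted P = 0.0192), and the interaction was −4.13 (SE 0.60, adjusted P = 0.128). *grip2a* (ENSDARG00000087187, chromosome 8, 7205524 to 7308373), a PDZ-domain scaffold protein, had 31 and 30 in WT EpiCs and 0 and 0 in mutant EpiCs, at least 12.1-fold lower against a floor of 3 reads in the shallower library. Its CM values were 414 and 563 against 394 and 505, and the interaction was −4.86 (SE 0.72, adjusted P = 0.132).

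Other genes with high values in CMs, named after their values were seen, were also lower in mutant EpiCs. *nppa*, the atrial natriuretic peptide gene, had 740 and 618 in WT EpiCs and 127 and 80 in mutant EpiCs, a 6.56-fold fall (limma adjusted P = 0.0192), and 4939 and 3376 against 3573 and 3065 in CMs. Its interaction was −2.43 (SE 0.39, adjusted P = 0.158). *myh6*, an atrial myosin heavy chain in zebrafish, had 540 and 229 against 88 and 130 in EpiCs and 10406 and 11547 against 11363 and 10116 in CMs, with an interaction of −1.68 (SE 0.51, adjusted P = 0.46). *tbx5a*, a T-box transcription factor of the heart, had 73 and 64 against 16 and 21 in EpiCs, and 1620 and 2001 against 2258 and 2123 in CMs, an interaction of −2.12 (SE 0.40, adjusted P = 0.19). The troponin C gene *tnnc1b* had 144 and 106 against 13 and 27 in EpiCs and 2060 and 1463 against 1352 and 1228 in CMs. Its interaction was −2.22 (SE 0.54, adjusted P = 0.282). *id4*, *hsd11b2* and *apln*, all higher in CMs, fell in EpiCs by 8.75-fold, 2.48-fold and 2.74-fold, with limma adjusted P values of 0.0192, 0.0357 and 0.0345, and had interactions of −2.49, −1.29 and −1.31. *id4* had 1452 and 1283 against 808 and 979 in CMs. Like *tnnc1b*, it was thus also lower in both mutant CM libraries.

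Of the 16 CM identity genes tested, 2 had an unadjusted interaction P under 0.05, both below 0 (*nppa* and *myh6*), beside 4.54% of all genes. The median interaction of the list was 0.02, as it was for all genes tested, and lay between −0.26 (without *tcf21+/+* EpiC replicate 2) and 0.25 (without *tcf21+/+* CM replicate 2) when single libraries were left out. In EpiCs, 12 of the 16 had a lower mean log2 value in mutants. *myl7* had 1333 and 1377 in WT EpiCs and 1327 and 1222 in mutant EpiCs, with an interaction of 0.12 (SE 0.29). *ttn.2* had 3110 and 1089 against 2008 and 1629, overlapping, with an interaction of −0.03 (SE 0.55). The summed values of the list in EpiCs were 19290 and 12928 in WT and 15164 and 13447 in mutants, so the 2 genotypes overlapped, and 6 of its 16 genes were lower in both mutant EpiC libraries than in both WT ones, against 21.5% of all genes. Whether the number of cells positive for both reporters differed between the EpiC libraries was not tested.

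Another set was detected in EpiCs of both genotypes and stood at 0 to 3 in the WT CM libraries, with higher values in both mutant CM libraries. *itga4* (ENSDARG00000103056, chromosome 9, 44034790 to 44088067) encodes the integrin subunit alpha 4, a receptor for fibronectin and VCAM1 that is carried by leukocytes and, in mouse, is needed for the epicardium to adhere to the heart. Its values were 1270 and 1082 in WT EpiCs and 411 and 192 in mutant EpiCs, and 0 and 0 in *tcf21+/+* CMs against 22 and 36 in *tcf21-/-* CMs. It had the smallest P of all named genes, an interaction of −6.92 (SE 0.81, limma adjusted P = 0.0992), and lay between −7.47 and −6.38 without any single library. The 2 sides differed in size: the mutant EpiC mean was 3.90-fold lower (adjusted P = 0.31), and the mutant CM mean rose at least 6.15-fold above the floor (adjusted P = 0.0332). *ncam1a* (ENSDARG00000056181, chromosome 21, 23338059 to 23746947), a neural cell adhesion molecule, had the same shape, with 956 and 825 against 181 and 107 in EpiCs and 2 and 2 against 24 and 13 in CMs. Its interaction was −5.31 (SE 0.80, adjusted P = 0.132), made up of about equal and opposite parts.

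In *fgl2a* most of the interaction came from CMs, and in *plxna3* all of it did. *fgl2a* (ENSDARG00000019861, chromosome 4, 20178694 to 20181964), a fibrinogen-like protein that in mammals is made by macrophages and T cells, had 102 and 103 against 39 and 64 in EpiCs and 0 and 0 against 62 and 54 in CMs. Its CM rise was at least 12.3-fold (limma adjusted P = 0.0235), and the interaction was −6.90 (SE 0.89, adjusted P = 0.0992), from differences of −1.02 in EpiCs and 5.88 in CMs. *plxna3* (ENSDARG00000007172, chromosome 8, 9222684 to 9570511), a semaphorin receptor, had 589 and 429 against 521 and 564 in EpiCs, overlapping, and 3 and 3 against 67 and 73 in CMs. It rose 23.3-fold in CMs (adjusted P = 0.0235), with an interaction of −4.04 (SE 0.58, adjusted P = 0.128).

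More genes of this shape were found after the values were seen. *mxra8a*, *mkxa*, *tmem154*, *cdh18a* and *aff2* were undetected in both *tcf21+/+* CM libraries, with values of 11 to 31 in the *tcf21-/-* ones, and each of the 5 was called higher in CMs with a limma adjusted P between 0.0235 and 0.0409. *dcn*, which encodes the small matrix proteoglycan decorin, had 0 and 2 against 19 and 65 in CMs and 2930 and 3199 against 2342 and 2165 in EpiCs, with an interaction of −4.83 (SE 0.93, adjusted P = 0.205). *fn1a*, a fibronectin gene, was already present in WT CMs and stood higher in both mutant libraries of each cell type, with 77 and 76 against 319 and 266 in CMs and 7506 and 6871 against 9548 and 11702 in EpiCs. It rose 3.82-fold in CMs (adjusted P = 0.0235) and had an interaction of −1.36 (SE 0.26, adjusted P = 0.201). Over all genes tested, 96 (0.597%) were undetected in WT CMs and above 0 in both mutant CM libraries, and 55 (0.342%) the other way round. The WT CM libraries held an estimated 6.44 and 8.64 M reads and the mutant ones 8.32 and 9.39 M. The part of depth in these counts was not tested.

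Leukocyte markers were higher in the same mutant CM libraries. All 12 leukocyte genes tested had a higher mean log2 value in mutant CMs, 10 of them without overlap between the genotypes, against 20.6% of all genes, and 3 with an unadjusted P under 0.05 (7.33% of all genes). Some of them, such as *ptprc*, *laptm5* and *c1qc*, reached the required mean only through the mutant CM libraries. These counts are therefore partly set by the filter, and the shares of all genes are not a like comparison. The 15 leukocyte genes in the table summed to 701 and 805 in *tcf21+/+* CMs, 2440 and 3412 in *tcf21-/-* CMs, 35 and 31 in WT EpiCs and 129 and 60 in mutant EpiCs. *mpeg1.1*, a macrophage gene, had 241 and 234 against 658 and 808 in CMs and was at 0 in 3 of the 4 EpiC libraries. *ptprc*, the pan-leukocyte CD45 gene, was at 0 in all 4 EpiC libraries and had 17 and 0 against 75 and 128 in CMs, with an interaction of −4.54 (SE 1.83, adjusted P = 0.659). The median interaction of the 12 genes was −1.07 (−1.87 to −0.34 without any single library), with 9 below 0 and 3 above it. Among those above 0 were *marco* (1.85, limma adjusted P = 0.862) and *lcp1* (1.18, adjusted P = 0.917). Both were also higher in both mutant EpiC libraries, with 0 and 0 against 47 and 6, and 1 and 0 against 7 and 31. Higher leukocyte values in mutants were thus not confined to CMs. Of the 11 epicardial identity genes, 6 had a higher and 5 a lower mean log2 value in mutant CMs. Their CM sums were 2780 and 4701 in WT and 4196 and 4851 in mutants. These sums came largely from *sema3fb* (985 and 2319 against 2227 and 2295) and *cav1* (870 and 838 against 763 and 837). They therefore say little about genes that are low in CMs. One such gene, *wt1a*, was at 0 in 3 CM libraries and at 8 in the other. The part of leukocytes in the values of *itga4*, *fgl2a* and the other genes of this set was not tested.

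**Figure D2:**
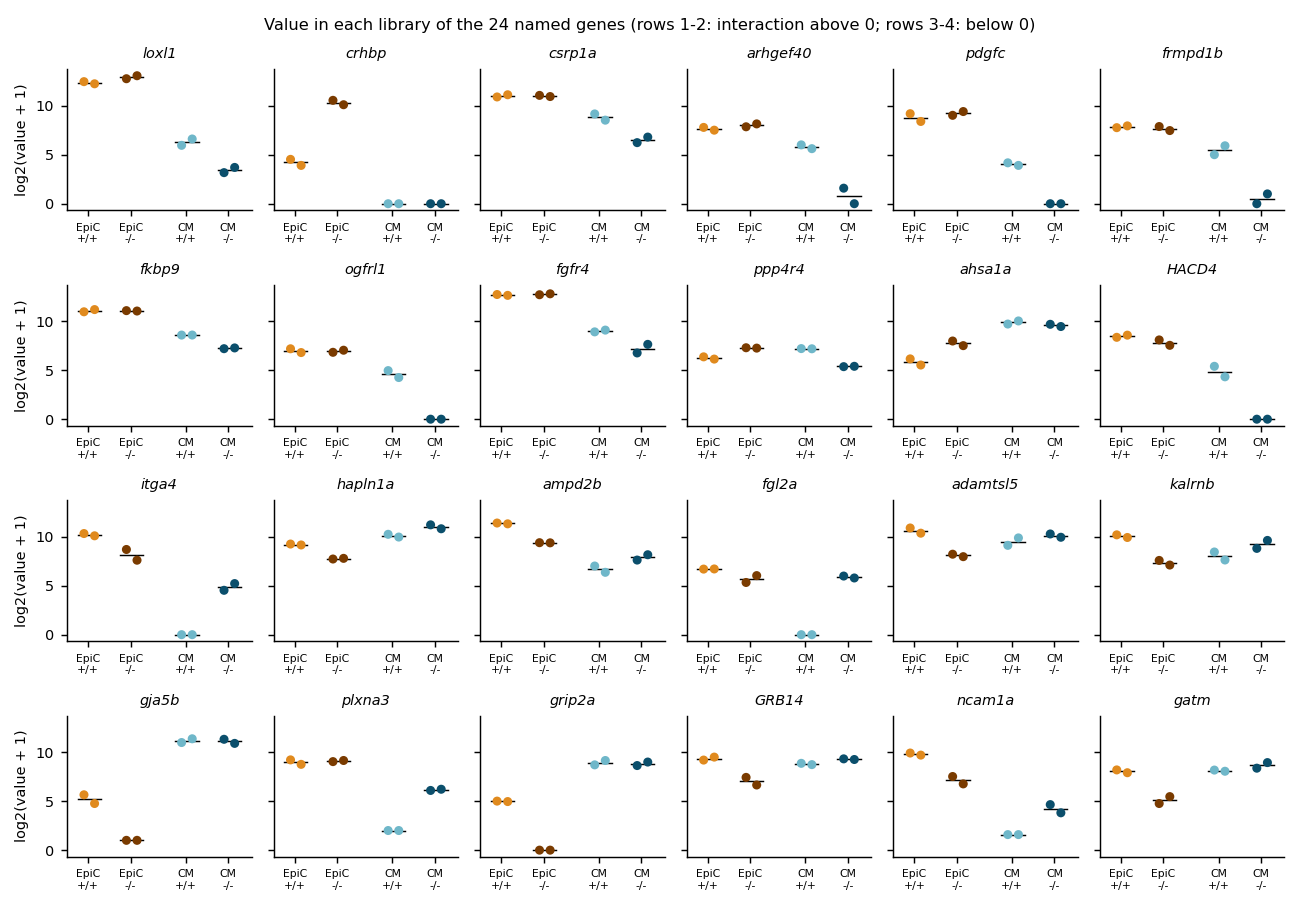
Value of each of the 24 named genes in each of the 8 libraries, as log2(value + 1) on a common y axis; points are libraries, bars are means of the 2 libraries, orange and brown are tcf21+/+ and tcf21-/- EpiCs, and light and dark blue are tcf21+/+ and tcf21-/- CMs. The genes above 0 in rows 1 and 2 mostly drop in tcf21-/- CMs, and those below 0 in rows 3 and 4 drop in tcf21-/- EpiCs, appear in tcf21-/- CMs, or both.

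Among the 12 named genes with an interaction above 0, 9 fell in mutant CMs, while their mean values in EpiCs differed by at most 1.55-fold between the genotypes. The EpiC libraries of the 2 genotypes overlapped for 6 of the 9, and stood apart for *loxl1* and *arhgef40* (higher in mutants) and *HACD4* (lower). *loxl1* (ENSDARG00000054451, chromosome 18, 50124297 to 50152689) encodes a lysyl oxidase-like enzyme that crosslinks elastin. Its values were 5585 and 4797 in *tcf21+/+* EpiCs, 6868 and 8482 in *tcf21-/-* EpiCs, 61 and 96 in WT CMs and 8 and 12 in mutant CMs. It fell 7.85-fold in CMs (limma adjusted P = 0.0235) and was 1.48-fold higher in mutant EpiCs, without overlap in either. The interaction was 3.40 (SE 0.43, adjusted P = 0.0992), and between 3.08 and 3.72 without any single library. *pdgfc* (ENSDARG00000077588, chromosome 14, 35567321 to 35853647), a ligand of the platelet-derived growth factor receptor alpha, had 579 and 334 against 516 and 674 in EpiCs and 17 and 14 against 0 and 0 in CMs. Its CM mean fell at least 4.53-fold (adjusted P = 0.0367), and the interaction was 4.46 (SE 0.78, adjusted P = 0.165).

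*fgfr4* (ENSDARG00000069105, chromosome 21, 37183124 to 37194839), a fibroblast growth factor receptor, had 6714 and 6325 against 6607 and 7053 in EpiCs and 478 and 542 against 107 and 197 in CMs. It fell 3.36-fold in CMs (limma adjusted P = 0.0422), with an interaction of 1.87 (SE 0.37, adjusted P = 0.212). *csrp1a* (ENSDARG00000006603, chromosome 23, 5765514 to 5818992), a LIM-domain protein of the cytoskeleton, had 1892 and 2210 against 2115 and 1948 in EpiCs and 569 and 366 against 74 and 110 in CMs, a 5.08-fold fall (adjusted P = 0.0342) and an interaction of 2.31 (SE 0.39, adjusted P = 0.161). *fkbp9* (ENSDARG00000005023, chromosome 19, 42591150 to 42607451), a prolyl isomerase of the endoplasmic reticulum, had 1980 and 2314 against 2148 and 2090 in EpiCs and 381 and 382 against 145 and 153 in CMs. The genotypes overlapped in EpiCs and stood apart in CMs, and the interaction of 1.34 (SE 0.26) had an adjusted P of 0.205.

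The other 4 genes of this kind were at or near 0 in both mutant CM libraries. *arhgef40* (ENSDARG00000078979, chromosome 7, 73488035 to 73571518), also a guanine nucleotide exchange factor, had 63 and 48 against 2 and 0 in CMs and an interaction of 5.37 (SE 0.91). *frmpd1b* (ENSDARG00000089009, chromosome 14, 4191136 to 4273396), a FERM and PDZ domain protein, had 31 and 59 against 0 and 1 and an interaction of 4.77 (SE 0.89). *HACD4* (ENSDARG00000102221, chromosome 7, 18993828 to 19003504), a dehydratase of fatty acid elongation, had 41 and 19 against 0 and 0 and an interaction of 4.20 (SE 0.86). *ogfrl1* (ENSDARG00000061223, chromosome 13, 27900446 to 27916565) had 30 and 18 against 0 and 0 and an interaction of 4.54 (SE 0.89). In EpiCs the 4 genes lay between 110 and 379 with differences of −0.65 to 0.35 on the log2 scale, and their interaction adjusted P values were 0.161 to 0.218 (limma).

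*tcf21* itself (chromosome 23, 31554269 to 31555696) had the same shape. Its values were 1600 and 1851 in WT EpiCs and 1636 and 1454 in mutant EpiCs, which overlapped, and 80 and 28 against 5 and 12 in CMs, which did not. The interaction was 2.30 (SE 0.77, limma adjusted P = 0.524). The CM gate excluded cells positive for the *tcf21* reporter. Of the 11 epicardial identity genes, *tcf21* among them, 2 were lower in mutant CMs without overlap (19.3% of all genes) and 1 was higher (20.6%). The other lower one was *cav1*, a caveolin gene, with 870 and 838 against 763 and 837. *wt1b* had 44 and 29 against 29 and 14 in CMs, *tbx18* 17 and 12 against 0 and 26, *col1a2* 41 and 203 against 5 and 234, and *postnb* 0 and 0 against 0 and 22. None of these 4 separated the genotypes completely. The median interaction of the list was 0.06, and −1.03 without *tcf21-/-* CM replicate 1. The part of epicardial RNA in the CM libraries was not tested.

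The remaining 3 named genes above 0 were higher in both mutant EpiC libraries. *crhbp* (ENSDARG00000024831, chromosome 21, 7823146 to 7832351) encodes the binding protein of corticotropin-releasing hormone. It had 22 and 14 in WT EpiCs and 1489 and 1092 in mutant EpiCs, a 71.7-fold rise (limma adjusted P = 0.0296), and was at 0 in all 4 CM libraries, so its interaction of 6.10 (SE 1.003, adjusted P = 0.158) is the EpiC difference. *gad1b*, the glutamate decarboxylase that makes GABA and named after its values were seen, was the mirror image, with 562 and 562 against 9 and 12 in EpiCs, 0 in all CM libraries, and an interaction of −5.63 (SE 1.03, adjusted P = 0.185). *ahsa1a* (ENSDARG00000028664, chromosome 20, 26966725 to 26974248), an activator of the Hsp90 ATPase, had 70 and 45 against 250 and 180 in EpiCs and 832 and 1036 against 817 and 698 in CMs, with an interaction of 2.20 (SE 0.45, adjusted P = 0.218). *ppp4r4* (ENSDARG00000010407, chromosome 20, 27298783 to 27372450), a regulatory subunit of protein phosphatase 4, separated the genotypes in opposite directions in the 2 cell types. It had 81 and 69 against 155 and 151 in EpiCs and 146 and 144 against 40 and 41 in CMs, with an interaction of 2.84 (SE 0.57, adjusted P = 0.215).

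Of the 14 endothelial and endocardial markers tested, 12 also had a higher mean log2 value in mutant EpiCs, 6 of them without overlap (21.6% of all genes) and 5 with an unadjusted P under 0.05 (4.17%). *pecam1* and *plvapb* reached the required mean only through the mutant EpiC libraries, so these counts are partly set by the filter. The 15 such genes in the table had EpiC sums of 5164 and 4044 in WT against 5903 and 5730 in mutants, and CM sums of 941 and 1723 against 1687 and 1432. The EpiC sums came largely from *kdrl*, *nfatc1* and *fli1a*, which stood at 1019 or more in every EpiC library. *tie1*, an endothelial receptor tyrosine kinase, had 19 and 44 against 184 and 196 in EpiCs, 6.03-fold higher in mutants (limma adjusted P = 0.33), and *clec14a*, an endothelial lectin-like receptor, had 0 and 17 against 164 and 27. *pecam1* was at 0 in both WT EpiC libraries and at 56 and 11 in the mutant ones, while *kdrl*, a VEGF receptor, overlapped with 2140 and 1452 against 1704 and 1356. Overlap was also seen for *cdh5* (1 and 12 against 40 and 12) and *esama* (21 and 22 against 64 and 14), both with a smaller interaction P than *tie1*. For the interaction, 0 of the 14 had an unadjusted P under 0.05, and the median of 0.56 was 1.51 without *tcf21+/+* CM replicate 1 and 0.19 without replicate 2. The part of such cells in the genes that were higher in mutant EpiCs was not tested.

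The secreted factors picked out in the paper were mostly lower in mutant EpiCs and not in mutant CMs. That list was chosen on these same samples, so its direction is not independent evidence. It also mixes directions, since the paper names *scube2*, *ccbe1* and *sfrp2* as upregulated in mutant hearts and others, such as *vegfaa* and *fgf24*, as downregulated in mutant EpiCs. Those 3 were the ones with a higher mean log2 value in mutant EpiCs. The medians of the list therefore depend on how many genes of each kind it holds. Of 12 genes tested, 0 were called for the interaction, 4 had an unadjusted P under 0.05 below 0 and 0 above it, beside 4.54% and 2.53% of all genes. *csf1b* and *vegfba*, both counted there, reached the required mean only through the WT EpiC libraries. These counts are therefore partly set by the filter, and the shares of all genes are not a like comparison. The median interaction was −2.21 against 0.02 for all genes, from a median of −1.57 in EpiCs and 0.42 in CMs. It stayed between −2.58 and −1.84 without any single library.

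The 4 were 2 growth factors of the vascular endothelial growth factor (VEGF) family, neurotrophin 3 and a colony-stimulating factor. *vegfaa* had 1983 and 1607 against 750 and 391 in EpiCs and 124 and 212 against 294 and 358 in CMs. Both cell types were without overlap and opposite in direction, with an interaction of −2.71 (SE 0.52, limma adjusted P = 0.205). In EpiCs, *vegfaa* was 3.15-fold lower in mutants (limma adjusted P = 0.153). *ntf3* had 278 and 275 against 41 and 56 in EpiCs and 148 and 133 against 199 and 187 in CMs, with an interaction of −2.96 (SE 0.50, adjusted P = 0.161). *csf1b*, a ligand of the macrophage receptor Csf1r, had 59 and 72 against 0 and 0 in EpiCs, at least 25.9-fold lower, and 0 and 0 against 0 and 3 in CMs, with an interaction of −7.05 (SE 1.35, adjusted P = 0.205). *vegfba* had 204 and 306 against 11 and 0 in EpiCs and at most 4 in any CM library, with an interaction of −5.52 (SE 1.84, adjusted P = 0.527).

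For the fibroblast growth factor genes the interaction was less certain. *fgf24* had 620 and 865 against 238 and 209 in EpiCs and 42 and 10 against 39 and 19 in CMs, where the genotypes overlapped, and its interaction was −2.09 (SE 0.95, adjusted P = 0.723). In EpiCs, *fgf24* was 3.32-fold lower in mutants (limma adjusted P = 0.533). This fit thus called neither *vegfaa* nor *fgf24* in EpiCs, while the paper, with DESeq2, reports both as significantly downregulated there. *fgf10a* had 95 and 172 against 137 and 52 in EpiCs, overlapping, and 0 and 13 against 14 and 20 in CMs, with an interaction of −2.84 (SE 1.64, adjusted P = 0.822). *cxcl14*, a chemokine gene, was lower in mutants of both cell types, with 1709 and 1885 against 774 and 380 in EpiCs and 135 and 79 against 76 and 31 in CMs, and an interaction of −0.65 (SE 0.71). The remaining 5 factors of the list had interactions between −2.33 (*scube2*) and 1.51 (*sfrp2*). *rspo3*, a Wnt pathway agonist outside the list and named after its values were seen, had 858 and 1136 against 377 and 281 in EpiCs and 77 and 61 against 98 and 159 in CMs, with an interaction of −2.45 (SE 0.50, adjusted P = 0.218).

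**Figure D3:**
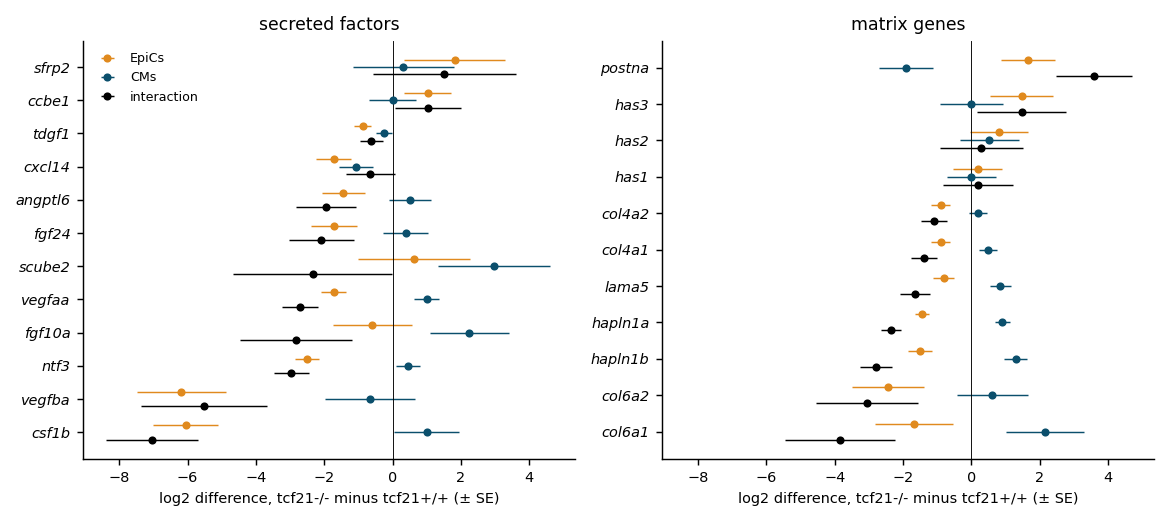
Log2 difference, tcf21-/- minus tcf21+/+, for the 12 secreted factors (left) and 11 matrix genes (right) in EpiCs (orange), in CMs (blue) and as the interaction of EpiCs minus CMs (black); points are estimates and bars are 1 SE of the limma fit. For vegfaa, ntf3, hapln1a, hapln1b and lama5, without overlap of the genotypes in either cell type, the EpiC points lie below 0 and the CM points above 0. Several other genes have the same signs with overlap in at least 1 cell type.

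The matrix genes picked out in the paper, also on these samples, split by family. The paper names *postna* and *has* as upregulated and the type IV and VI collagen, laminin and link protein genes of the list as downregulated. The median of this list too depends on how many of each kind it holds. Of 11 tested, 0 were called, 6 had an unadjusted interaction P under 0.05 below 0 and 1 above it, again beside 4.54% and 2.53% of all genes. The 6 were the 2 link protein genes described above, the laminin gene *lama5* and the collagen genes *col4a1*, *col4a2* and *col6a1*. *lama5* had 7781 and 6728 against 4382 and 3869 in EpiCs and 1414 and 3071 against 3984 and 3472 in CMs, with an interaction of −1.65 (SE 0.43, adjusted P = 0.341). Its lowest CM value was that of the shallowest library. *col4a1* had 6543 and 5553 against 3519 and 2938 in EpiCs and 404 and 683 against 860 and 626 in CMs, with an interaction of −1.39 (SE 0.38, adjusted P = 0.378). *col4a2*, its partner in the basement membrane network, had 2245 and 2028 against 1286 and 1007 in EpiCs and an interaction of −1.10 (SE 0.39, adjusted P = 0.574). *col6a1* was the least certain, with 4175 and 3512 against 1199 and 1185 in EpiCs and 0 and 0 against 0 and 19 in CMs. Its interaction was −3.84 (SE 1.61, limma adjusted P = 0.682), between −6.00 and −1.68 without any single library. The CM part of it came from 1 mutant library.

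*postna*, a periostin gene, was the exception above 0. It had 40 and 66 in *tcf21+/+* EpiCs, 179 and 151 in *tcf21-/-* EpiCs, 131 and 215 in WT CMs and 17 and 109 in mutant CMs, with an interaction of 3.58 (SE 1.12, adjusted P = 0.481). Its genotypes did not overlap in either cell type, and the directions were opposite to those of the basement membrane genes. The 3 hyaluronan synthase genes had interactions of 0.18 (*has1*), 0.28 (*has2*) and 1.47 (*has3*), with limma adjusted P values of 0.911 to 0.983, and *has1* and *has3* stood at 0 in all 4 CM libraries. The median of the matrix list was −1.39, with −0.91 in EpiCs and 0.52 in CMs.

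Over all 38 collagen genes tested, 2 were above and 4 below 0 at an unadjusted P under 0.05, beside 2.53% and 4.54% of all genes. Their median interaction was 0.02, and its sign depended on the WT CM libraries, with 0.34 without *tcf21+/+* CM replicate 1 and −0.42 without replicate 2. *col8a1a*, a short-chain collagen gene, had 67 and 21 against 342 and 412 in EpiCs, was at 0 in all CM libraries and had an interaction of 3.28 (SE 1.14, adjusted P = 0.556). *col12a1b* had 236 and 204 against 492 and 307 in EpiCs and 8 and 6 against 0 and 3 in CMs, with an interaction of 2.81 (SE 1.07, adjusted P = 0.622). *col1a1b* was level in EpiCs, with 7884 and 8361 against 8211 and 8304, and higher in mutant CMs, with 838 and 1244 against 1706 and 1964, an interaction of −0.82 (SE 0.27, adjusted P = 0.524).

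Several lists of genes that every cell uses had medians slightly above 0. The 74 mitochondrial ribosomal protein genes had a median interaction of 0.30, with medians of −0.23 in EpiCs and −0.54 in CMs. The interaction was above 0 for 70 of them, but 0 were called and 2 had an unadjusted P under 0.05. In CMs, all 74 had a lower mean log2 value in mutants, 68 of them without overlap (19.3% of all genes). By limma, 17 were lower in CMs at an unadjusted P under 0.05 (4.88%). In EpiCs, 66 had a lower mean log2 value, 23 without overlap (21.5% of all genes). The paper, on these same samples, reports several such genes as downregulated in mutant CMs. The shift of the interaction median rested on 1 library. Without *tcf21+/+* CM replicate 1, the shallowest, the median was 0.02, and without *tcf21+/+* CM replicate 2 it was 0.60. The list summed to 115614 and 77210 in WT CMs and to 68720 and 62809 in mutant CMs, the WT libraries lying further apart than the second WT library did from either mutant.

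Other lists of abundant genes also depended on this library. The median interaction was 0.24 for 83 cytosolic ribosomal protein genes (81 above 0), 0.23 for 39 proteasome genes (39 above 0), 0.16 for 80 respiratory chain subunits (67 above 0) and 0.22 for 41 genes of the tricarboxylic acid cycle and fatty acid oxidation (35 above 0). Without *tcf21+/+* CM replicate 1, these medians were −0.03, −0.04, −0.11 and −0.02. The deposited scaling bears on them as well, since estimated reads without scaling move the median of all genes to −0.24 and those of the 4 lists to −0.02, −0.04, −0.11 and −0.05. Relative to the median of all genes, the lists thus stayed above it with that scaling.

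**Figure D4:**
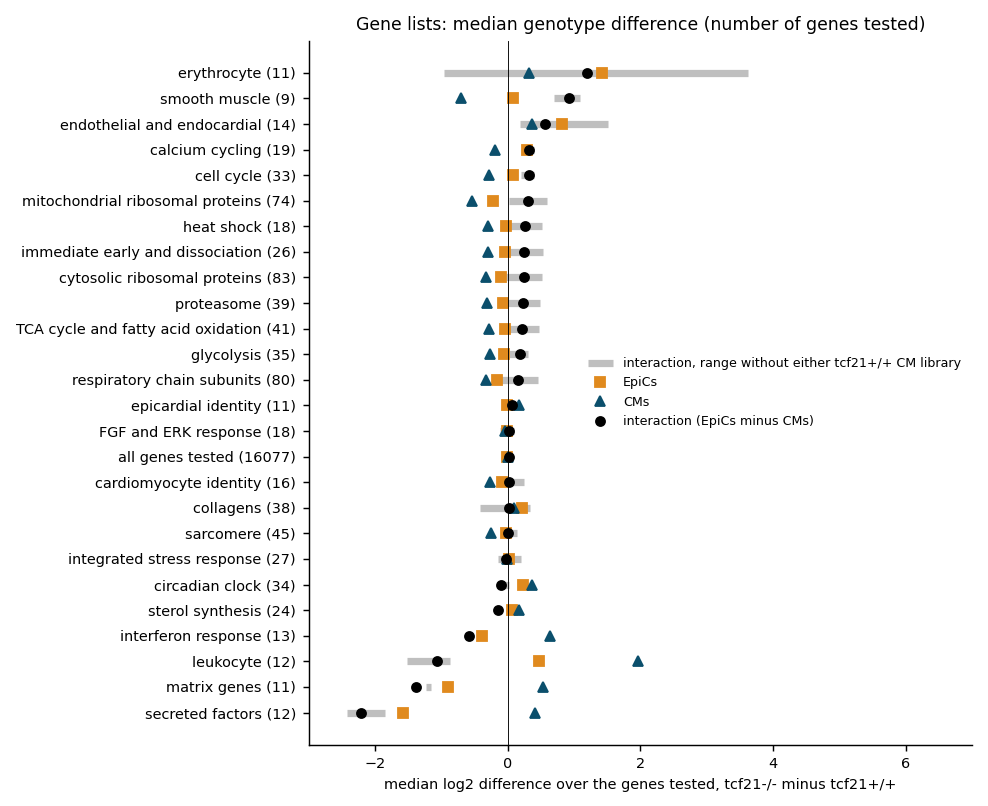
Median log2 difference, tcf21-/- minus tcf21+/+, over the genes tested in each list (number in brackets), in EpiCs (squares), in CMs (triangles) and as the interaction (circles); grey bars span the interaction medians obtained without replicate 1 and without replicate 2 of the tcf21+/+ CMs. Secreted factors (−2.21) and matrix genes (−1.39) lie lowest, while the ribosomal and mitochondrial lists lie at 0.30 or below with grey bars that reach close to 0 or past it.

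Smooth muscle genes kept their position without either WT CM library. All 9 genes tested had an interaction above 0, with a median of 0.92 (0.44 to 1.09 without any single library) from medians of 0.09 in EpiCs and −0.71 in CMs, and 1 had an unadjusted P under 0.05, beside 2.53% of all genes. *tagln*, the SM22 gene, had 878 and 1035 against 908 and 926 in EpiCs and 757 and 431 against 257 and 254 in CMs, with an interaction of 1.102 (SE 0.39, limma adjusted P = 0.572). *acta2*, the smooth muscle actin gene, had 2413 and 2820 against 2555 and 2486 in EpiCs and 3685 and 2831 against 2405 and 2018 in CMs, with an interaction of 0.50 (SE 0.25, adjusted P = 0.768). Both genes separated the genotypes in CMs and not in EpiCs. In all, 3 of the 9 were lower in mutant CMs without overlap, against 19.3% of all genes. Others overlapped in CMs, with their lowest value in *tcf21-/-* replicate 1. Examples are *myh11a* (28 and 64 against 2 and 61) and *mylka* (33 and 107 against 15 and 84).

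Of 45 sarcomere genes tested, 4 were above and 5 below 0 at an unadjusted P under 0.05, beside 2.53% and 4.54% of all genes. The median was 0, and between −0.39 (without *tcf21+/+* EpiC replicate 2) and 0.20 (without *tcf21+/+* EpiC replicate 1) when single libraries were left out. *ldb3b*, a Z-disc protein gene, had 1268 and 960 against 1776 and 2036 in EpiCs and 6076 and 4162 against 4558 and 3945 in CMs, with an interaction of 1.03 (SE 0.31, adjusted P = 0.442). Of 35 glycolysis genes tested, 3 were above 0 at such a P (2.53% of all genes) and 0 below, and the median of 0.18 was 0.01 without *tcf21+/+* CM replicate 1. *pfkma*, a muscle phosphofructokinase gene, had 0 and 40 against 169 and 252 in EpiCs and 83 and 112 against 26 and 20 in CMs, an interaction of 7.05 (SE 1.99, adjusted P = 0.392). *pkmb*, a pyruvate kinase gene, had 11 and 25 against 46 and 36 in EpiCs and 1526 and 1114 against 762 and 713 in CMs, an interaction of 2.06 (SE 0.62, adjusted P = 0.439). In both genes the genotypes separated in opposite directions in the 2 cell types.

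Genes that moved alike in both cell types mark the other end of the comparison. For the 8 genes whose 2 genotype differences had the same sign and the smallest P values in both cell types, the interaction lay between −2.63 (*bcan*) and 1.23 (*mhc1uba*), and 0 of them had an unadjusted interaction P under 0.05. That choice of genes largely fixes this outcome in advance. *per2*, a circadian clock gene, had 1334 and 1201 against 2713 and 2787 in EpiCs and 1573 and 1853 against 3462 and 3353 in CMs, differences of 1.12 and 0.996 on the log2 scale and an interaction of 0.12 (SE 0.21). *atp6ap1b*, an accessory subunit gene of the vacuolar proton pump, had 1171 and 1265 against 559 and 563 in EpiCs and 692 and 730 against 264 and 298 in CMs, with an interaction of 0.22 (SE 0.27). *hmga2*, a chromatin architectural protein gene, had 1015 and 948 against 610 and 464 in EpiCs and 889 and 743 against 483 and 399 in CMs, and its interaction was 0.01 (SE 0.31). *mhc1uba*, a class I major histocompatibility gene, had 2 and 1 against 316 and 262 in EpiCs and 0 and 0 against 29 and 83 in CMs, with an interaction of 1.23 (SE 1.101, limma adjusted P = 0.912). *efemp2a*, a fibulin gene, was lower in mutants of both, with 5934 and 5836 against 1691 and 1660 in EpiCs and 593 and 896 against 72 and 161 in CMs, and an interaction of 0.93 (SE 0.50, adjusted P = 0.795).

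The number of calls depended on how the spread was modelled and on the WT CM libraries, as the plot of counts by setting shows. Without *tcf21+/+* CM replicate 2, 119 genes were called, 12 above and 107 below 0. Without *tcf21+/+* CM replicate 1 there were 6, and without any of the other 6 libraries 0. In these fits the lone WT CM library is assumed to vary like the other groups. Across the settings, *ampd2b*, *loxl1*, *hapln1a* and *itga4* were among the genes called most often.

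**Figure D5:**
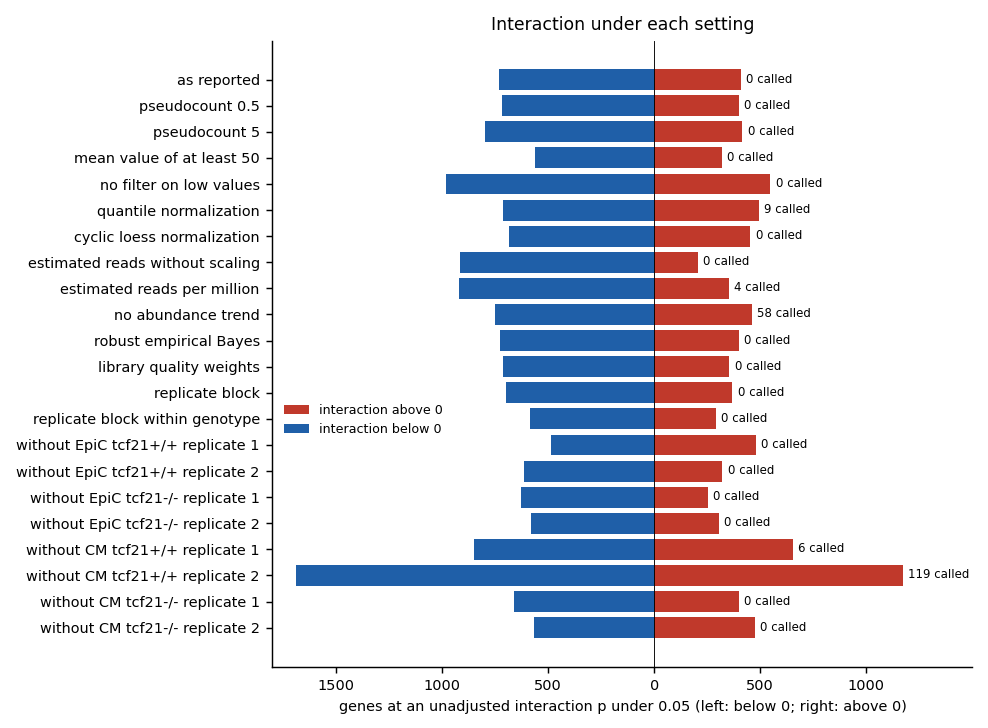
Number of genes at an unadjusted interaction P under 0.05 above 0 (red, right) and below 0 (blue, left) under each setting, with the number called at an adjusted P under 0.05 beside each bar. As reported there are 407 and 730 with 0 called, and the fit without replicate 2 of the tcf21+/+ CMs stands apart with 119 called.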

How the data were processed

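The 8 libraries (Danio rerio, 96 hpf, sorted EpiCs and CMs, full-length SMART-Seq v4 cDNA, single-end reads) were grouped by their labels. Per the methods, the authors trimmed reads with Trimmomatic 0.39, aligned them to danRer11 (Ensembl release 99) with STAR 2.7.3a and counted reads per gene with featureCounts 1.6.5, leaving out reads that overlapped several genes or aligned to several regions. The table deposited by the authors holds signal values, which are such counts after division by a library-wide factor (1 per library) and rounding to integers, judging from the values. Coordinates and gene names come from the same table, 0 value columns of which were left unmapped. A scan for the step between low values gave what 1 read was worth (0.776 to 1.57 units) and the estimated reads per library.

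Values were compared as log2(value + 1) in R 4.3.3 by limma (version 3.58.1) with moderated variances that follow abundance, in 1 fit to all 8 libraries and 4 groups, 4 residual degrees of freedom, two-sided tests and Benjamini–Hochberg adjustment over the 16077 genes averaging 10 or more. Genes were called at an adjusted P under 0.05 and an absolute log2 difference of at least 0.59. On this scale the change of low genes is understated where neither group stands at 0. Where 1 group stands at 0, the log2 difference depends on the added 1 and can exceed the lower bound of the fold. Exact permutation of 2 libraries against 2 cannot give a P below 0.333 and was not used. A fold against a group at 0 is a lower bound against 3 reads in the shallower library of that group, which covers counting error only.

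Named genes were the 12 with the smallest interaction P in each direction among genes with a symbol other than a clone name and a mean of 50 or more. *tcf21* and the secreted factors and matrix genes picked out in the paper were named as well. In the other lists, the members named include some of those with the smallest interaction P. Further members, such as *tie1*, *pecam1*, *mpeg1.1*, *lcp1*, *myh11a* and *mylka*, were picked after the values were seen. Genes outside the lists are said to have been named after their values were seen, or were chosen by the rule given with them. The comparison, the lists and their members were chosen with earlier results of these data known. The ribosomal and respiratory chain lists were trimmed of kinases and assembly factors after the values were seen. Lists are described by counts and medians, with no set test. The fit was tested on simulated data with the same spread for all genes and groups, a simpler case than these libraries. The alternatives were other pseudocounts, filters, limits, scalings and variance models, replicate blocks and leaving out each library. Tables and figures were prepared in Python 3.11.15 (numpy 2.4.6, pandas 2.3.3, matplotlib 3.10.9). Sequences and the imaging data were not used here.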

Additional observations from a re-analysis of the deposited data

How the results depend on the processing

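Of 23 alternatives, the calls for the interaction stayed at 0 in both directions under other pseudocounts, filters and fold limits, cyclic loess, estimated reads without scaling, robust empirical Bayes and library quality weights. They became 1 above and 8 below 0 with quantile normalization (*adamtsl5*, *ampd2b*, *apln*, *hapln1a*, *hsd11b2*, *itga4*, *kalrnb*, *loxl1* and *nppa*), 1 and 3 with estimated reads scaled to equal totals (*ampd2b*, *crhbp*, *gad1b* and *hapln1a*), and 16 and 42 without the abundance trend, where 49 of the 58 had a group at 0 in both libraries. Leaving out 1 library at a time gave 0 to 12 calls above and 0 to 107 below 0, with 3 and 3 without *tcf21+/+* CM replicate 1 and 12 and 107 without *tcf21+/+* CM replicate 2. The cause was not tested.

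Same-numbered libraries did not deviate together (r of deviations from the group means between −0.081 and 0.067), so the numbers are not taken to pair them. With a replicate block, 0 genes were called above and 0 below 0, the lowest adjusted P was 0.186 and 1068 genes had an unadjusted P under 0.05. With the replicate block within genotype, 0 and 0 were called, with 0.417 and 877.

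Genes above 0 made up 35.8% of those at an unadjusted P under 0.05, against 18.4% with unscaled reads (206 above and 916 below 0), where the median of all genes was −0.24, and 27.6% with reads scaled to equal totals (351 and 922). Of 86 genes followed, 9 changed sign under at least 1 alternative. With unscaled reads, *per2* was at −0.14, *atp6ap1b* at −0.044, *hmga2* at −0.26 and *myl7* at −0.14. With quantile normalization *hmga2* was at −0.13 and *myl7* at −0.035, and *hmga2* was at −0.011 with cyclic loess and −0.072 with reads scaled to equal totals. Without single libraries *hmga2* lay between −0.19 and 0.20, *ttn.2* between −0.78 and 0.73 and *myl7* between −0.17 and 0.42. The other 4 changed sign without a single library, *scube2* to 0.63 (range −5.30 to 0.63), *sfrp2* to −0.22 and −0.53 (up to 3.55), *has2* to −0.08, −1.15 and −0.43 (up to 1.71), and *has1* to −0.21 and −0.27 (up to 0.64). Over 36 lists, 80 of 755 medians moved by more than the spread between replicates. edgeR and DESeq2 were not run, since rounding hides the integer counts of libraries with a step under 1. Low counts limit the genes at or near 0 in CMs, where *tcf21+/+* replicate 1 held an estimated 6.44 M reads.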

Other observations

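Of 13 interferon response genes tested, 9 had an interaction below 0 and 4 above it. By limma 0 were called, and 4 had an unadjusted P under 0.05, all below 0, beside 4.54% of all genes. *dhx58*, counted there, had a mean of 10.5 and reached the required mean only through the WT EpiC libraries. This count is therefore partly set by the filter, and the share of all genes is not a like comparison. The median interaction was −0.59, from −0.38 in EpiCs and 0.63 in CMs, and lay between −0.89 (without *tcf21-/-* EpiC replicate 1) and −0.37 (without *tcf21-/-* EpiC replicate 2) when single libraries were left out. *stat1a*, a transcription factor of interferon signaling, had 2273 and 1722 against 1407 and 1207 in EpiCs and 1768 and 1635 against 1906 and 2100 in CMs, with an interaction of −0.84 (SE 0.26, adjusted P = 0.47). *dhx58*, an RNA helicase of the antiviral response, had 30 and 23 against 0 and 10 in EpiCs and 0 and 0 against 14 and 7 in CMs, with an interaction of −6.49 (SE 1.64, adjusted P = 0.305). In *stat1a* the genotypes separated in both cell types in opposite directions.

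Of 18 heat shock genes, 15 had an interaction above 0, with 2 at an unadjusted P under 0.05 (2.53% of all genes) and a median of 0.26 that was 0.02 without *tcf21+/+* CM replicate 1. *hspa1b*, a heat shock protein 70 gene, had 122 and 196 against 134 and 250 in EpiCs and 1048 and 1452 against 583 and 597 in CMs, with an interaction of 1.305 (SE 0.52, limma adjusted P = 0.65). Cell cycle genes had a median of 0.32, with 27 of 33 above 0 and medians of 0.07 in EpiCs and −0.29 in CMs, and this median lay between 0.20 and 0.42 without any single library. *kif11*, a mitotic kinesin, had 1139 and 968 against 1298 and 1594 in EpiCs and 473 and 359 against 250 and 361 in CMs, with an interaction of 0.91 (SE 0.36, adjusted P = 0.653). Of 34 circadian clock genes, 30 had a higher mean log2 value in mutant EpiCs and 29 in mutant CMs, with 2 and 6 at an unadjusted P under 0.05 (4.17% and 7.33% of all genes). Their median interaction was −0.10, and 0.13 without *tcf21+/+* EpiC replicate 1, and 0 of them had an unadjusted interaction P under 0.05.

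Erythrocyte genes summed to 759 in *tcf21-/-* EpiC replicate 2, 746 in *tcf21+/+* CM replicate 2 and 865 in *tcf21-/-* CM replicate 1, and to between 51 and 136 in the other 5 libraries, and their median interaction of 1.19 was −0.97 without *tcf21+/+* CM replicate 2.

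By chromosome, the share of genes at an unadjusted interaction P under 0.05 ran from 5.49% (chromosome 11) to 9.64% (chromosome 7). It was 7.61% on chromosome 23, which carries *tcf21* and had the highest such share for the genotype difference in CMs, 16.3%. These shares are descriptions without a test.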
